A study of Mus musculus with 8 samples.

Results

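The 10 genes described here belong to the growth hormone axis of liver, which leads from the growth hormone receptor to insulin-like growth factor 1. They are Ghr, Jak2, Stat5a, Stat5b, Socs2, Cish, Igf1, Igfals, Bcl6 and Cux2. They were chosen by name: each probe set that the platform annotation pairs with 1 of these symbols was taken, and the brightest by its mean over the 8 arrays stood for the gene. All 10 genes were measured, by 11 of the 22725 probe sets in the table, and they are 10 of the 19540 genes compared. Gene expression was measured on Affymetrix arrays in liver of male C57B/6 mice aged 12 weeks, fed chow under a light and dark cycle, given no treatment, and sampled at ZT10, which is 10 h after lights on and is given as 5 pm. One group of 4 arrays is wild type (WT). The other group of 4 arrays is labelled HNF6KO, from livers depleted of HNF6, the liver transcription factor encoded by Onecut1. The labels and series text used here do not say how HNF6 was removed, in which cells, or whether each array is a separate animal. The p-values therefore measure the spread between these arrays, which may be technical.

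Growth hormone from the pituitary binds its receptor GHR on hepatocytes, the receptor-bound kinase JAK2 phosphorylates the transcription factors STAT5A and STAT5B, and these enter the nucleus to switch on target genes. Among the targets are Igf1, which encodes the circulating growth factor IGF1, and Socs2 and Cish, whose proteins dampen the receptor's signal in return. Male rodents release growth hormone in pulses and females more continuously, and this pattern sets much of the sex difference in liver gene expression. BCL6 and CUX2 are repressors in that system: BCL6 is higher in male liver and holds down female-biased genes, and CUX2 is higher in female liver and holds down male-biased genes.

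STAT5 binds the 9-letter palindrome TTCNNNGAA, which BCL6 can also bind, so the windows around the genes' transcription starts were searched for it. RefSeq (build GRCm38.p6) gave 16 windows of 300 bases (250 before the start and 50 after it) for 9 of the 10 genes, and none was given for Socs2. The motif reads alike on both strands. It occurred in 3 genes, Cish, Bcl6 and Igfals, with 8 occurrences in 5 windows. Of all 32851 such windows 8.30% held it at least 1 time, 0.457% at least 2 times and 0.0335% at least 3 times. The following runs are shown because these genes are the ones with the motif close to a start, and capitals mark the motif. The Cish run spans its RefSeq start, with motifs that begin at positions 1 and 12 of the transcript, and lies at chr9:107296654-107296683 on the plus strand.
Cish: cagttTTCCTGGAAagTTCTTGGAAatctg
The first Bcl6 run is the whole 250 bases before the outermost RefSeq start, at chr16:23988853-23989102 on the minus strand, where the motif begins 118 bases before the start.
Bcl6: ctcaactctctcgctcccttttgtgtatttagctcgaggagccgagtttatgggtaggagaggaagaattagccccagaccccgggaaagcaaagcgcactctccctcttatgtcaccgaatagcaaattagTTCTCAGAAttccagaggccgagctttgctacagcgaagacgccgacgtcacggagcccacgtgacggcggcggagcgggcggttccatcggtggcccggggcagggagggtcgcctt
Before the inner Bcl6 start the motif was found 3 times, beginning 168, 122 and 88 bases before it, at chr16:23981433-23981461, chr16:23981387-23981415 and chr16:23981353-23981381 on the minus strand.
Bcl6 inner 1: aggccgcggcTTCCTGGAAagttacttct
Bcl6 inner 2: ggcaggagtgTTCTGTGAAatccttagag
Bcl6 inner 3: atcgactacgTTCCGGGAAtgagagggct
In Igfals the motif begins 236 bases before the first start and 58 bases before the second, at chr17:24877598-24877626 and chr17:24878163-24878191 on the plus strand.
Igfals 1: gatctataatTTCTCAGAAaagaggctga
Igfals 2: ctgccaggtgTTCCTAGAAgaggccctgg
HNF6 binds sites with the core letters ATCAAT on either strand. A second core form, read alike on both strands, is ATCGAT. Either form occurred in 1 of the 16 windows, at the second Cux2 start, and in 8.40% of all windows. A match of letters is a description and not a measured binding site.

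None of the 10 genes passed the test between HNF6KO and WT. The test was limma across all 19540 genes with Benjamini-Hochberg adjustment, and a gene passed at an adjusted p under 0.05. It called 0 of the 10 genes, against 0.399% of all genes. At an unadjusted p of 0.05, 2 of the 10 passed, Socs2 and Ghr, both higher in HNF6KO, where 4.3% of all genes were higher and 9.51% differed in either direction. The groups overlapped for all 10 genes, and they did not overlap for 5.67% of all genes. The median log2 change of the 10 genes was 0.05, beside -0.01 over all genes. For 9 of the 10 genes the 95% interval of the change lay within 2-fold in either direction, and for 6 of them (Ghr, Jak2, Stat5a, Stat5b, Igf1 and Cux2) within 1.25-fold. The exception to the first count was Socs2. All log2 changes below are HNF6KO minus WT, with the moderated SE of limma.

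**Figure D1:**
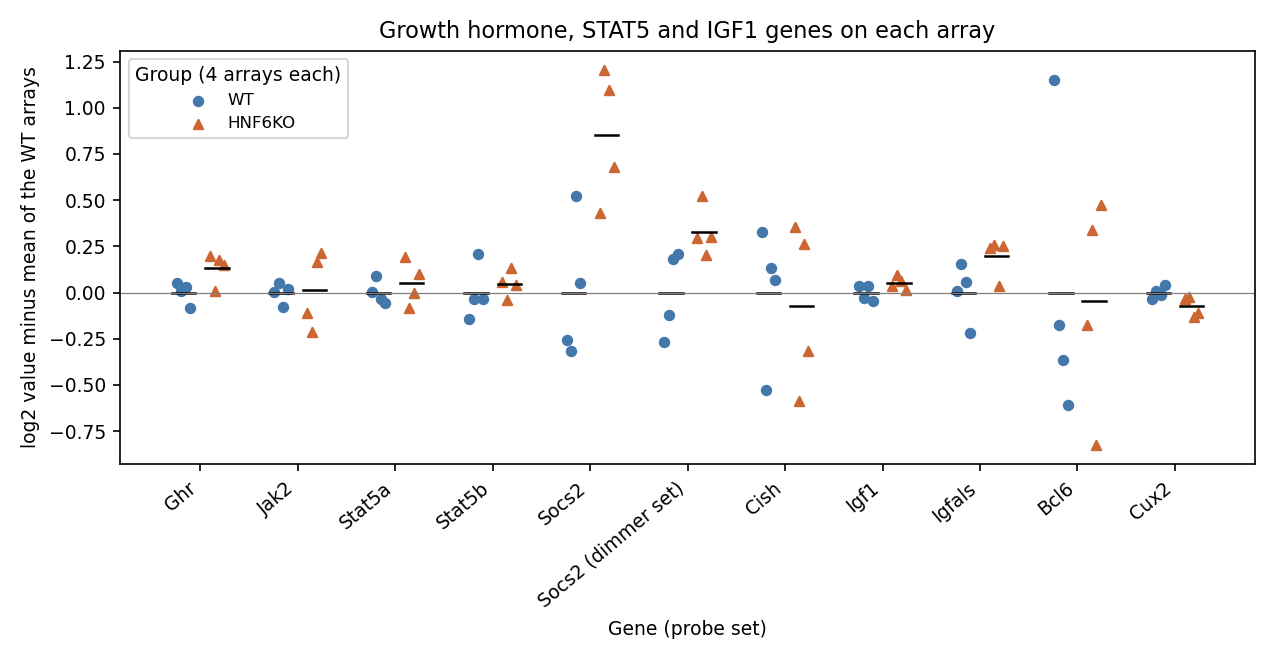
Log2 value of each array minus the mean of the WT arrays (vertical axis) for the 11 probe sets of the 10 genes (horizontal axis). Circles are the 4 WT arrays, triangles the 4 HNF6KO arrays, each in array order from left to right, and black bars are group means. The groups overlap for every gene, Igf1 and Cux2 are tightly grouped, and Bcl6, Cish and the brighter Socs2 set spread widely.

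The targeted gene was lower in the livers labelled HNF6KO. Onecut1 fell by 1.32 ± 0.18 (SE, n = 4 per group) on the log2 scale (limma, adjusted p = 0.0273), and the groups did not overlap. It no longer passed without any 1 of WT arrays 1, 3 and 4 and HNF6KO arrays 3 and 4 (adjusted p = 0.0633 to 0.0954 in limma), without HNF6KO arrays 3 and 4 together (-1.06, adjusted p = 0.0983) or within arrays 1 and 2 alone (-0.83, adjusted p = 0.171), and it was lower in HNF6KO in each of these. The arrays differed in more than genotype. Those numbered 3 and 4 had higher Kupffer and endothelial markers in both groups, with a mean log2 level over the 12 Kupffer markers of 7.99 on arrays 1 and 2 and 8.96 on arrays 3 and 4. All 12 Kupffer and all 12 endothelial markers also differed upward in HNF6KO on average, with medians of 0.10 and 0.18, and 0 passed in limma (0 Kupffer and 1 endothelial marker at an unadjusted p of 0.05). Of all 19540 genes 8318 differed upward, and 4.3% were higher at that unadjusted p. On a per-array scale the marker levels overlapped: the Kupffer mean ran from 7.63 to 8.84 in WT and from 7.68 to 9.26 in HNF6KO. Over 13 hepatocyte markers the mean level was 13.35 to 13.46 in WT and 13.35 to 13.52 in HNF6KO, which matches the labelled tissue. In whole liver fewer cells of a type and less RNA per cell cannot be told apart.

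The receptor and its kinase were close to equal in both groups. Ghr, the growth hormone receptor, read 12.08, 12.03, 12.06 and 11.94 in WT, in array order, and 12.22, 12.04, 12.20 and 12.18 in HNF6KO. HNF6KO arrays 1, 3 and 4 lay above every WT array, and HNF6KO array 2 lay among them. The log2 change of Ghr was 0.13 ± 0.06, or 1.10-fold (limma, adjusted p = 0.511), with a 95% interval from 0.003 to 0.26. Jak2, the kinase bound to the receptor, read 8.38, 8.43, 8.29 and 8.39 in WT and 8.26, 8.16, 8.54 and 8.59 in HNF6KO. Its HNF6KO arrays lay on both sides of the WT arrays, with arrays 1 and 2 below all of them and arrays 3 and 4 above. The mean difference was therefore small, 0.01 ± 0.10 (adjusted p = 0.985), with -0.19 inside the pair of arrays 1 and 2 and 0.22 inside the pair of arrays 3 and 4. The part of the marker difference between these arrays in the Jak2 values was not tested.

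Neither STAT5 gene differed beyond the spread between arrays. Stat5a read 8.09, 8.18, 8.05 and 8.03 in WT and 8.27, 8.004, 8.08 and 8.19 in HNF6KO. The log2 change was 0.05 ± 0.07 (limma, adjusted p = 0.887), with an interval from -0.10 to 0.20. Stat5b, which encodes the STAT5 form that carries most of the growth hormone signal in liver, read 8.72, 8.83, 9.07 and 8.83 in WT and 8.92, 8.82, 8.99 and 8.90 in HNF6KO. All HNF6KO arrays of Stat5b lay within the range of the WT arrays. Its log2 change was 0.05 ± 0.08 (adjusted p = 0.920), with an interval from -0.13 to 0.22. The STAT5 proteins are switched on by phosphorylation, which a transcript array does not measure. The pair are close paralogs, and probe sets of relatives can share signal.

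The feedback inhibitor Socs2 had the largest difference between group means among the 10 genes. SOCS2 takes part in the removal of the growth hormone receptor, and mice without it grow large. The brighter Socs2 probe set read 8.21, 8.15, 8.98 and 8.52 in WT and 8.89, 9.67, 9.56 and 9.15 in HNF6KO. HNF6KO arrays 2, 3 and 4 lay above every WT array, and array 1 lay below WT array 3 alone. The log2 change was 0.85 ± 0.22, or 1.81-fold, with an interval from 0.36 to 1.35 (limma, adjusted p = 0.208). Arrays 1 and 2 alone gave 1.10, and arrays 3 and 4 alone gave 0.60. The change stayed between 0.74 and 1.03 whichever array was left out, and did not pass in any of these fits.

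The dimmer Socs2 probe set differed by less. It read 5.99, 6.14, 6.44 and 6.47 in WT and 6.56, 6.78, 6.47 and 6.56 in HNF6KO, so that its HNF6KO array 3 lay below WT array 4. Its log2 change was 0.33 ± 0.12, or 1.26-fold (limma over all probe sets, adjusted p = 0.408). Counted from the dimmest, its mean ranked at 36.2% of all probe sets in WT and at 43.4% in HNF6KO. A change at a low level can be understated, and whether that holds for the dimmer set was not tested. On GRCm38.p6, Socs2 lies between the protein-coding genes Cradd and Mrpl42. In the order of the platform's probe set numbers, the dimmer set falls between sets of Cradd and Mrpl42, and 9 of its 10 nearest annotated sets are for genes on the chromosome of Socs2. The brighter set falls between sets of Gm16497 and Ntsr2, and 0 of its 10 nearest sets are for genes on that chromosome. Only 2.05% of 21044 annotated probe sets had 0 of 10, and 97.7% had at least 5. The annotation pairs both sets with Socs2 transcripts, and which transcript the brighter set reports was not tested. The 1.81-fold value for Socs2 therefore rests on a probe set whose number stands apart from the gene's own neighbourhood.

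**Figure D2:**
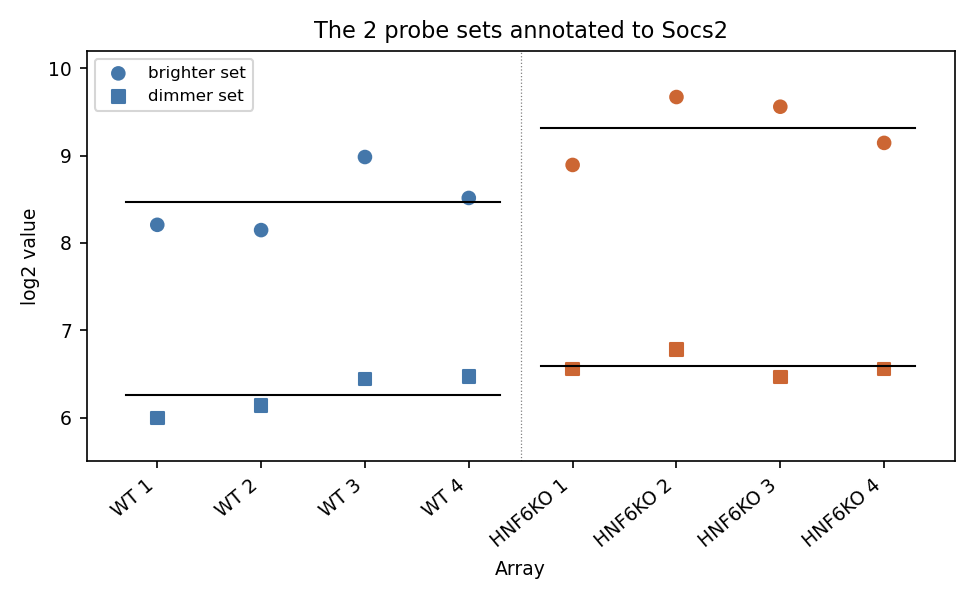
Log2 value (vertical axis, starting at 5.5) on each array (horizontal axis) of the brighter (circles) and the dimmer (squares) probe set annotated to Socs2, WT in blue and HNF6KO in orange, with black lines at the group means. Both sets are higher on average in HNF6KO, by 0.85 and 0.33, and in both the groups overlap.

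The other feedback inhibitor, Cish, covered nearly the same range in both groups. CISH is a relative of SOCS2 that blocks STAT5 from docking at the receptor, and its gene holds the motif pair printed above. Cish read 8.28, 7.41, 8.08 and 8.01 in WT and 8.30, 7.36, 8.21 and 7.63 in HNF6KO. The lowest value of each group was on array 2, and the highest on array 1. The log2 change was -0.07 ± 0.24 (limma, adjusted p = 0.968), and its interval, from -0.62 to 0.48, allows a fall of up to 1.54-fold and a rise of up to 1.39-fold. The difference between the changes of Cish and Socs2 was not tested.

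The main output of the axis, Igf1, was nearly equal on all 8 arrays. It read 11.97, 11.91, 11.97 and 11.89 in WT and 11.97, 12.03, 11.998 and 11.95 in HNF6KO. The groups overlapped, and the whole range over the 8 arrays was 1.10-fold. The log2 change was 0.05 ± 0.04 (limma, adjusted p = 0.796), and the interval runs from a fall of 1.03-fold to a rise of 1.11-fold. Igfals encodes the acid-labile subunit that holds IGF1 in the blood in a ternary complex with an IGF binding protein. It read 10.12, 10.27, 10.17 and 9.89 in WT and 10.36, 10.37, 10.15 and 10.37 in HNF6KO. HNF6KO arrays 1, 2 and 4 lay above every WT array, and HNF6KO array 3 lay among them. Its log2 change was 0.20 ± 0.09, or 1.15-fold, with an interval from -0.001 to 0.39 (adjusted p = 0.527).

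The repressor of female-biased genes, Bcl6, varied more between arrays of one group than any other of the 10 genes. It read 8.60, 7.28, 7.09 and 6.84 in WT and 7.28, 7.79, 6.63 and 7.93 in HNF6KO. WT array 1 was the highest of all 8 and HNF6KO array 3 the lowest, and the WT arrays alone covered a 3.39-fold range. The log2 change was -0.05 ± 0.40 (limma, adjusted p = 0.988). Its interval, from -0.96 to 0.87, allows a fall of up to 1.95-fold and a rise of up to 1.82-fold. Without WT array 1 the log2 change was 0.34, on the other side of 0, and it did not pass there either. BCL6 is also a factor of germinal-centre B cells. Over 8 lymphocyte markers the mean log2 level per array was 6.15 to 6.19 in WT and 6.15 to 6.25 in HNF6KO. Of these 8 markers 6 lay below the level of the median gene, so a difference in such cells could be missed. Bcl6 ran from 6.63 to 8.60, and the part of such cells in the Bcl6 values was not tested.

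Cux2, the repressor of male-biased genes in female liver, did not pass and was slightly lower on average in HNF6KO. It read 7.46, 7.50, 7.48 and 7.53 in WT and 7.46, 7.47, 7.36 and 7.38 in HNF6KO. HNF6KO arrays 3 and 4 were the lowest, and the groups overlapped. The log2 change was -0.08 ± 0.05 (limma, adjusted p = 0.684), and the interval allows a rise of at most 1.02-fold and a fall of up to 1.13-fold. No detection calls were used here, so whether the Cux2 signal of male liver lay above the background of the array cannot be told, and a change of a transcript near background is understated.

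**Figure D3:**
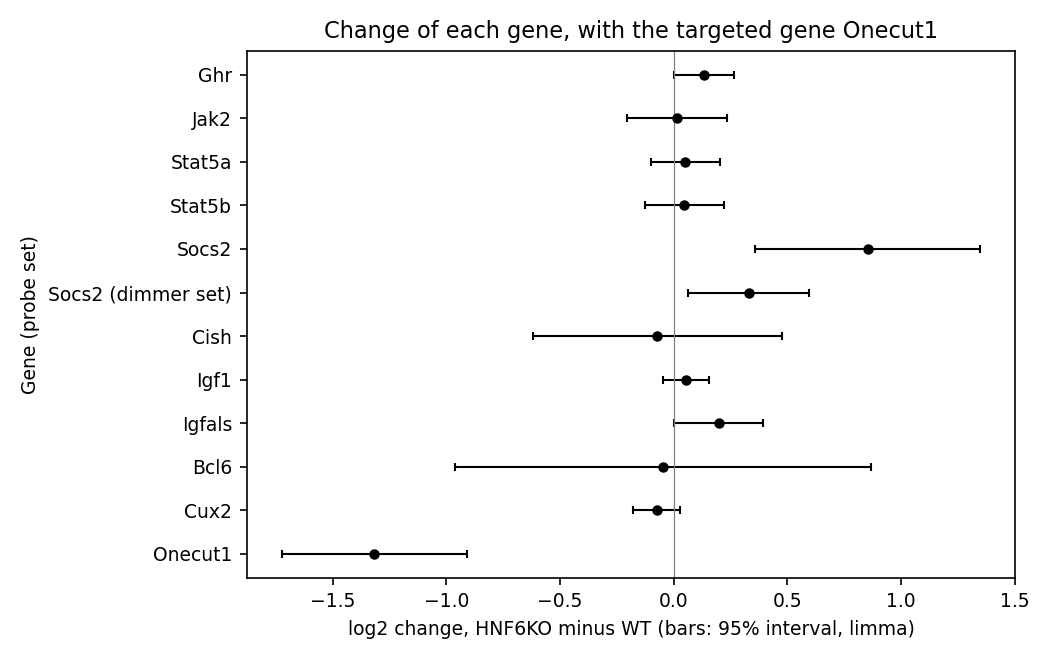
Log2 change, HNF6KO minus WT (horizontal axis), with its 95% interval from limma, for each probe set of the 10 genes and for the targeted gene Onecut1 (vertical axis). Intervals are narrow for Igf1 and Cux2 and wide for Bcl6 and Cish; those of Ghr and of both Socs2 probe sets lie above 0 before adjustment, and Onecut1 lies at -1.32.

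The 10 genes differed widely in how steady they were between arrays of one group. The within-group SD pools the variances of both groups on the log2 scale, and its median over all genes was 0.10. Igf1 had an SD of 0.04, and only 3.09% of all genes had a smaller one. Cux2 also had an SD of 0.04, with 5.24% of genes below it. At the other end stood Bcl6 with 0.70 (99.6% of genes below it), Cish with 0.41 (97.9%) and Socs2 with 0.37 (97.3%). Receptor, kinase, STAT5 and carrier genes lay between these ends, from 0.07 for Ghr (26.4% of genes below it) to 0.15 for Jak2 (77.3%). The genes with a large spread were thus Bcl6, Cish and, by its brighter probe set, Socs2, and their intervals are correspondingly wide. The dimmer Socs2 set spread less, with an SD of 0.23 in WT and 0.13 in HNF6KO. The brighter set had 0.38 and 0.36.

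**Figure D4:**
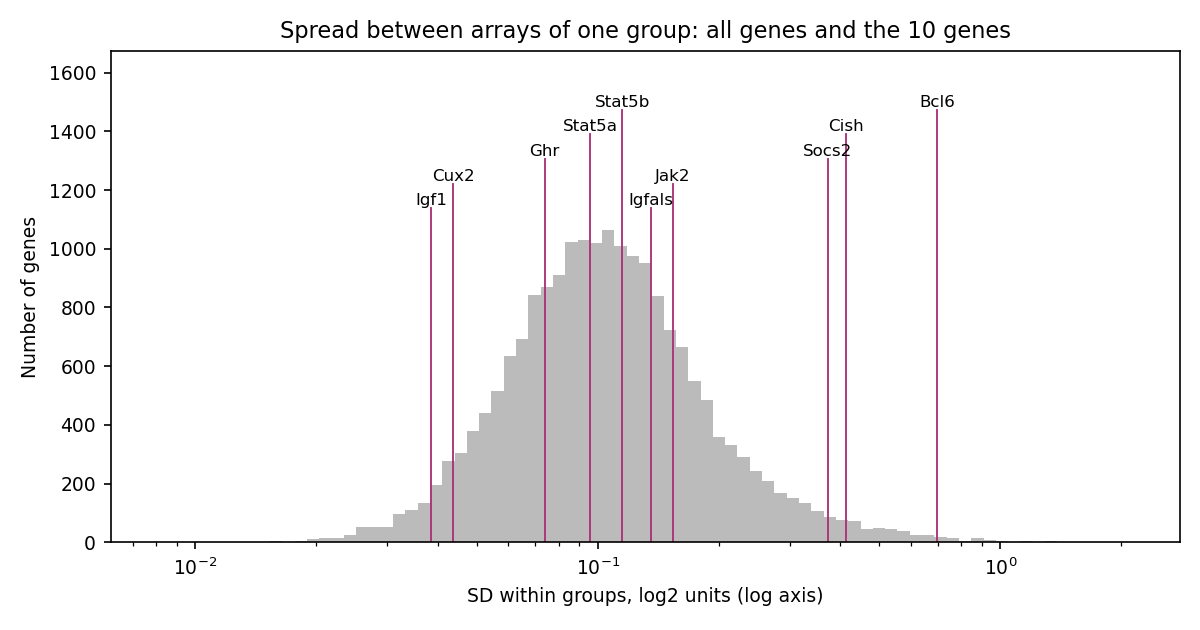
Number of genes (vertical axis) by SD within groups in log2 units (horizontal log axis) for all 19540 genes in grey, with vertical lines at the 10 named genes; the height of a line has no meaning. Igf1 and Cux2 lie at the steady end, and Socs2 (by its brighter probe set), Cish and Bcl6 at the variable end.

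Other genes of growth hormone signalling did not pass either. Of 27 listed kinases, adaptors, phosphatases and SOCS genes 24 were measured, and 0 passed in limma in either direction, beside 0.159% of all genes that were higher and 0.241% that were lower. At an unadjusted p of 0.05, 0 were higher and 2 lower (5.21% of all genes were lower), and the median log2 change was -0.03. Those 2 were Socs7, another SOCS family gene (log2 change -0.33 ± 0.08, adjusted p = 0.211), and the JAK2 adaptor gene Sh2b1 (-0.14 ± 0.06, adjusted p = 0.490). Socs7 read 8.05, 7.97, 7.84 and 7.70 in WT and 7.70, 7.58, 7.47 and 7.50 in HNF6KO, all HNF6KO arrays below all WT arrays. It was the 1 gene of the 24 whose groups did not overlap, where 3.21% of all genes lay apart in that direction. Socs3, an inhibitor shared with cytokine receptors, stood at -0.02 ± 0.17 on the same scale (adjusted p = 0.986).

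The other genes of the IGF system, which encode IGF2, the receptors and the binding proteins with their proteases, likewise did not pass. All 16 listed were measured, 0 passed in limma, 0 reached an unadjusted p of 0.05, and the median log2 change was 0.03. The smallest p-values were those of Igfbp4 (log2 change -0.10 ± 0.06, adjusted p = 0.673) and Igfbp2 (-0.19 ± 0.11, adjusted p = 0.678), both genes of IGF binding proteins. Igfbp3, the partner of Igfals in the ternary complex, gave a log2 difference of 0.22 ± 0.14 (adjusted p = 0.689). Igfbp1, a binding protein gene that insulin holds down, spread from 9.14 to 10.52 in WT and from 9.42 to 11.17 in HNF6KO. For 15 of the 16 genes the 95% interval lay within 2-fold in either direction, Igfbp1 being the exception.

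Sex-biased liver genes, which depend on the growth hormone pattern, held large changes in both directions. These lists were written with results of these data known and are no independent evidence of a direction. Of 26 measured male-biased genes 6 fell in limma, 0 rose and 20 did not pass, with a median log2 change of -0.25. Over all genes 0.241% fell and 0.159% rose in that test. A change of 2-fold or more was seen for 7 male-biased genes, all lower. The share of all genes that reached a 2-fold change was not counted. Hsd3b5, a steroid dehydrogenase gene, read 11.82, 11.48, 10.52 and 10.76 in WT and 7.42, 7.71, 5.997 and 5.91 in HNF6KO. The other genes with the smallest p-values were Mup3, a major urinary protein, Elovl3, a fatty acid elongase, and the complement gene C6, with log2 changes of -1.05 ± 0.08, -2.01 ± 0.19 and -1.25 ± 0.14 (adjusted p = 0.00228 to 0.0111). At an unadjusted p of 0.05, 11 male-biased genes were lower and 1 higher, which was Ces2e (0.55 ± 0.16, limma adjusted p = 0.267). At that p 5.21% of all genes were lower and 4.3% higher. Of 28 measured female-biased genes 4 rose, 0 fell and 24 did not pass, with a median log2 change of 0.77. A change of 2-fold or more in either direction was seen for 14 genes. Among these 14 Cyp4a14 was lower (-1.38 ± 0.53, limma adjusted p = 0.444) and the others were higher. At the same unadjusted p, 14 female-biased genes were higher and 2 lower. The 2 lower genes were Cyp4a14 and Cyp4a10 (-0.46 ± 0.18, limma adjusted p = 0.470). In an alternative chosen after seeing the data, leaving out 1 array at a time gave 3 to 7 male-biased genes that fell, with the 3 without WT array 2, and 3 to 5 female-biased genes that rose. Without HNF6KO arrays 3 and 4 together 4 male-biased genes fell and 4 female-biased genes rose.

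Cyp2b9, the female-type P450 with the smallest p-value, read 6.46, 5.79, 6.73 and 7.07 in WT and 12.39, 11.53, 12.28 and 12.44 in HNF6KO (limma, adjusted p = 1.35e-04). The other 3 risers were the lipoprotein lipase gene Lpl (2.41 ± 0.25) and the transporter genes Slc22a26 (3.32 ± 0.37) and Slc22a27 (1.48 ± 0.15). The P450, Slc22, Mup and steroid dehydrogenase genes belong to families whose probe sets can pick up relatives. Of the regulators on the female-biased list, chosen here after their values were seen, Trim24 gave a log2 difference of 0.33 ± 0.16 (adjusted p = 0.570) and Tox one of -0.10 ± 0.15 (adjusted p = 0.908). Whether the sex-biased genes and the 10 genes differ as sets was not tested.

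**Figure D5:**
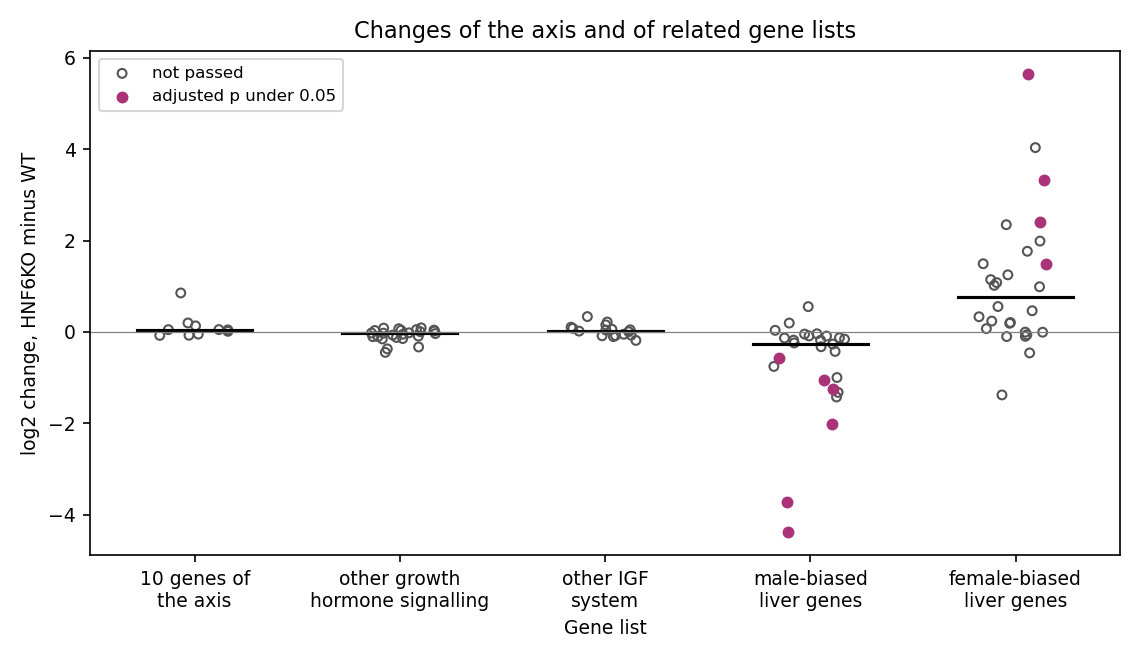
Log2 change, HNF6KO minus WT (vertical axis), of every measured gene of 5 lists (horizontal axis): the 10 genes of the axis, 24 other genes of growth hormone signalling, 16 of the IGF system, 26 male-biased and 28 female-biased liver genes. Filled points passed an adjusted p of 0.05 in limma, open points did not, and bars are medians. The first 3 lists lie close to 0 apart from Socs2, and the sex-biased lists spread up to 5.65 and down to -4.39.

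Across the 8 arrays, other genes followed the 3 members with the smallest p-values, Socs2, Ghr and Igfals. These correlations describe shared patterns over the 8 arrays of both groups and carry no test. Socs2 was most like Nfkb2, a subunit gene of NF-kappaB (Pearson r = 0.97), Zfp420 (0.96) and Fmo2, a flavin monooxygenase on the female-biased list (0.95), and with group means removed r was 0.94, 0.92 and 0.87. Fmo2 gave a log2 difference of 1.99 ± 0.41 (limma, adjusted p = 0.103). Ghr was most like Mettl7a1 (0.97), Myo1d (0.97) and the fatty acid elongase gene Elovl5 (0.96), with r of 0.95, 0.93 and 0.92 when group means were removed. Igfals was most like Pus3 (0.96), Pate9 (0.94) and Uchl3 (0.94). Each r was among the 3 highest for its member over 19540 genes, so high values are not rare. The part of the separation of arrays 1 and 2 from arrays 3 and 4 in these correlations was not tested.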

How the data were processed

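Total RNA from liver was biotin-labelled and hybridised to 8 arrays, per the labels' protocols. The authors deposited 1 log2 expression value per probe set and array; log2 is inferred from the values (3.69 to 14.1), and neither the base nor the background correction or normalization is stated in the labels or file. Values were used unchanged. Of 22725 probe sets 21113 had 1 gene symbol, 43 several and 1569 none here.

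The 2 groups were compared over 19540 genes by limma 3.58.1 (lmFit and eBayes, without trend or weights; R 4.3.3), with Benjamini-Hochberg adjustment and a threshold of 0.05. Tested on data simulated for this comparison, limma called 72.0% of 50 genes given a log2 change of 0.5, 94.0% of 50 given 1, and 13 of 19340 left unchanged. The simulated noise had each gene's own SD and was independent between genes, so it held no shared difference between arrays. The changed genes were drawn at random, so these shares are not rates for the 10 genes, least of all for those with a large SD. The members and gene lists were chosen with earlier results of these data known. Genes were named by rule: the 10 members, Onecut1, up to 4 passing genes per related list (otherwise the 2 smallest p-values), and the 3 genes most correlated with each of 3 members; others are illustrations or were chosen after their values were seen. Alternatives covered scaling, filtering, variance model, array weights, probe set choice, blocks and arrays left out. Number of arrays limits the precision. Prlr and Jak3 were not analysed here. Marker lists of cholangiocytes, neutrophils, stellate, erythroid and acinar cells, with 7, 8, 12, 2 and 5 genes measured, gave 0 passing genes in limma. At an unadjusted p of 0.05 they gave 0, 0, 1, 1 and 0 genes, where 9.51% of all genes passed. The erythroid gene was Alas2, lower in HNF6KO without overlap (-0.98 ± 0.19, limma adjusted p = 0.0925). The mean level of the 2 erythroid markers was 8.32 to 8.48 in WT and 7.61 to 8.20 in HNF6KO.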

Additional observations from a re-analysis of the deposited data

Results flagged for a closer look

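Among 66 groups of 4 arrays, 4 held an array set apart from the other 3 by more than Dixon's 95% critical value of 0.829, and chance sets apart about 1 group in 20. Igfals on HNF6KO array 3 was 10.15, below the other HNF6KO arrays at 10.36 to 10.37. On HNF6KO array 2, Mup3 was 12.03 (12.31 to 12.36 on the others), C6 was 10.30 (9.95 to 9.996) and Myo1d was 8.44 (8.76 to 8.82).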

How the results depend on the processing

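In every alternative at the adjusted threshold of 0.05, 0 of the 10 genes passed in limma. In the fit as reported, 2 reached an unadjusted p of 0.05. Adjusted p-values of Socs2 ran from 0.0574 (array weights) to 0.513, those of Ghr from 0.173 to 0.873 and those of Igf1 from 0.471 to 0.954. The 5 genes Ghr, Socs2, Igf1, Igfals and Stat5a stayed above 0 and Cux2 below 0 throughout. Log2 changes that crossed 0 passed in no fit. Jak2 was -0.19 within arrays 1 and 2, -0.16 when HNF6KO arrays 3 and 4 were dropped, and -0.054 to 0.089 with 1 array left out. Stat5b was -0.0023 within arrays 3 and 4 and -0.0011 to 0.11 with 1 array left out. Cish was 0.058 with array weights and -0.25 to 0.10 with 1 array left out. Bcl6 was 0.31 within arrays 3 and 4, 0.081 when HNF6KO arrays 3 and 4 were dropped, and -0.25 to 0.34 with 1 array left out. The causes were not tested.

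The count over all genes (78; 31 higher, 47 lower) moved more, to 202 (101 and 101) with array weights, 245 (107 and 138) with the split of arrays 1 and 2 from 3 and 4 as a term, 22 (8 and 14) within arrays 1 and 2, 77 (50 and 27) within arrays 3 and 4, and 19 (8 and 11) when HNF6KO arrays 3 and 4 were dropped. It was 162 (73 and 89) at an adjusted p of 0.1, 14 (7 and 7) at 0.01, 1859 (841 and 1018) at an unadjusted 0.05, and 16 to 79 (7 to 41 higher, 9 to 38 lower) with 1 array left out. Within arrays 3 and 4 the list medians were 0.020 for growth hormone signalling, -0.039 for the IGF system and 0.63 for female-biased genes. With 1 array left out they ran from -0.065 to -0.012 and -0.0081 to 0.054, 0.70 to 0.94 for female-biased and -0.35 to -0.19 for male-biased genes. With the array number as a replicate block 125 genes passed (53 higher, 72 lower), 0 of them among the 10 (Socs2 adjusted p = 0.0918). The same-number arrays correlated at 0.44, 0.17, 0.51 and 0.02 in their deviations, and not every WT array correlated best with its own number, so the numbers were not taken to pair the arrays.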
